A study of Mus musculus with 64 samples.

Results

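GABAergic interneurons are the local inhibitory neurons of the brain, and 9 genes that mark their classes in striatum and cortex were followed in striatal RNA: Pvalb, Sst, Npy, Nos1, Vip, Calb2, Cck, Nkx2-1 and Lhx6. They were taken by gene symbol, and all 9 were found among the 23420 genes listed and passed the filter on low counts that left 16113 genes for testing. Striatum punches from 16 mice gave the RNA. They were F2 mice bred from C57BL/6NJ and C57BL/6J, 2 closely related substrains, and were homozygous at 1 selected locus that the labels do not name. The N/N mice carried 2 copies of the mutant C57BL/6NJ allele and are called binge-prone in the labels. The J/J mice carried 2 copies of the wild-type C57BL/6J allele and are called binge-resistant. There were 8 mice of each genotype (5 females, 3 males), aged 69 to 100 days. All punches were taken on day 24, right after 5 min in the elevated plus maze, a test of anxiety-like behaviour. In an F2 cross the rest of the genome segregates in both genotypes.

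In the mouse striatum, interneurons are a small minority among the medium spiny neurons, the GABAergic projection cells. Fast-spiking interneurons carry parvalbumin (Pvalb), another class carries somatostatin, neuropeptide Y and neuronal nitric oxide synthase together (Sst, Npy, Nos1), and yet another carries calretinin (Calb2). Vasoactive intestinal peptide (Vip) marks a class of cortical interneurons, and cholecystokinin (Cck) marks cortical basket cells but is also made by many cortical glutamatergic neurons. The transcription factors Nkx2-1 and Lhx6 specify interneurons born in the medial ganglionic eminence. In mouse, those bound for cortex switch Nkx2-1 off, and many of those that settle in striatum keep it.

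Promoter sequences are shown for the 3 markers whose level moved with the cortical content of the punch in the results that follow, Vip, Cck and Nkx2-1, and for Sst, the marker with the highest level per length. Each runs 5′ to 3′ on the strand of its gene over 300 bases, 250 before the RefSeq start site and 50 from it, in the RefSeq table for GRCm38.p6. The windows are chr10:5638968-5639267 on the plus strand for Vip, and chr9:121495645-121495944 for Cck, chr12:56536859-56537158 for Nkx2-1 and chr16:23890795-23891094 for Sst, all on the minus strand. Capitals mark the cAMP response element TGACGTCA, its shorter form TGACG and the TATA motif TATAAA, each searched on both strands (CGTCA is TGACG read on the other strand).
Vip: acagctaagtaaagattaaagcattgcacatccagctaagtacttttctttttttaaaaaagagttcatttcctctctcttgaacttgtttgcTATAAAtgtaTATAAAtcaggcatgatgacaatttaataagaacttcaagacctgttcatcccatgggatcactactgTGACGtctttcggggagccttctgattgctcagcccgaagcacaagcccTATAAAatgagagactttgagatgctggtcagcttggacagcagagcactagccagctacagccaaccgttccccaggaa
Cck: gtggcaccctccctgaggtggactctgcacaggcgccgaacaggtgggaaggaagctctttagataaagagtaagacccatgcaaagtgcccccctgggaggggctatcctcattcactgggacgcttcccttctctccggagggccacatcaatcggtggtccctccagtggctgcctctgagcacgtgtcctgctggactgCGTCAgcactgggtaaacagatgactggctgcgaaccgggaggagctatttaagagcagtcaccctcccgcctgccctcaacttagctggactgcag
Nkx2-1: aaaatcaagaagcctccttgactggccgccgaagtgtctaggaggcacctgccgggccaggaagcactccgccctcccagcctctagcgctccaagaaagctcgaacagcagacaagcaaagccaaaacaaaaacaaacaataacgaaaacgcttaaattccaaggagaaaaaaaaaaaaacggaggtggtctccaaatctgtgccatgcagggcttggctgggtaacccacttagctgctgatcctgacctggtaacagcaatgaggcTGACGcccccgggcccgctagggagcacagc
Sst: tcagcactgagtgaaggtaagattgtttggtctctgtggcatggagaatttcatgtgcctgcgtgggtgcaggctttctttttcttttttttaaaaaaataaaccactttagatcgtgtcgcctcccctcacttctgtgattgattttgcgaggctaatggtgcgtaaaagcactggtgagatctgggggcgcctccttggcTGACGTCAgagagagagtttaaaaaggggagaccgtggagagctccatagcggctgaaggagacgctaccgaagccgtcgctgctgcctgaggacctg

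The full cAMP response element, the site through which cAMP signalling acts on peptide genes, was found in Sst and in no other window of the markers. It began at base -48 from the start site, and 1.79% of the 32851 promoters in the table hold it. The shorter form TGACG lies inside the full element, and 20.8% of promoters hold it. It stood at -79 in Vip, at -47 in Cck and, on the other side of the start site, at 20 in Nkx2-1. Vip held TATAAA at -157, -147 and -30, a motif found in 13.6% of promoters. Lhx6, a marker not called for cortical content, also held it, at 4 of 1 window, read on the other strand as TTTATA. RefSeq windows were matched for 8 of the 9 markers, and Calb2 was not matched. Nos1 also held TGACG, at -130 of 1 window, so that this short form stood beside markers that rose with cortical content, fell with it or did neither.

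Per length of exon, the peptide genes Sst, Npy and Cck stood at the top. Levels are in reads per kilobase of merged GENCODE exons, scaled to library size (RPKM) over the 16 mice. Sst averaged 187.3 RPKM, ahead of Npy at 97.8 and Cck at 71.9. Pvalb followed with 20.5 RPKM, then Vip with 5.56, Lhx6 with 4.44 and Calb2 with 3.27. The lowest were Nos1 at 2.17 and Nkx2-1 at 1.16 RPKM. Neighbours in this order kept it in all 16 mice for Sst over Npy, Cck over Pvalb, Pvalb over Vip and Nos1 over Nkx2-1. Lhx6 exceeded Calb2, and Calb2 exceeded Nos1, in 15 mice each, Npy exceeded Cck in 14 and Vip exceeded Lhx6 in 12, so the last pair is not separated beyond its spread. The order depends on the merged exon length, which is 11.151 kb for Nos1. In counts scaled to library size alone (CPM), Nos1 averaged 24.2, above Pvalb at 21.3, Lhx6 at 21.3 and Vip at 18.9. Cck at 93.8 CPM was then above Npy at 55.4 CPM. Annotated genes overlap 2.4% of the exon bases of Nos1, on the opposite strand, and 2.16% of those of Lhx6, and share no exon base with the other 7 markers.

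The summed libraries held 27405386 to 51334152 gene reads per mouse, and each marker had between 61 reads (Nkx2-1, lowest mouse) and 7890 reads (Cck, highest mouse). The tissue label was checked against medium spiny neuron genes: the adenosine receptor gene Adora2a averaged 291 CPM (counts scaled to library size) and the dopamine receptor gene Drd1a 223 CPM. Genes of cortical glutamatergic neurons were also present, with Slc17a7, the vesicular glutamate transporter of cortex, at 773 CPM. Their amount differed between mice. A cortical score, the mean log2 CPM of 10 such genes, ran from 4.14 in N/N female mouse 11 to 6.00 in J/J male mouse 8, a 3.62-fold range. Over the 16 mice it fell as the mean log2 CPM of 16 medium spiny neuron genes rose (r = -0.811, rho -0.803, a description over mice that share their libraries). Mean cortical scores were 5.14 ± 0.4995 (N/N) and 5.51 ± 0.262 (J/J; SD, n = 8 each). In whole tissue, fewer cells of a type and less RNA per cell cannot be told apart.

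The markers differed widely in how much they varied between mice. Vip had a 7.90-fold range over the 16 mice, from 4.19 CPM in N/N female mouse 11 to 33.1 CPM in J/J male mouse 8. Cck had a 3.55-fold range with its lowest value in the same mouse 11, and Nkx2-1 had a 3.19-fold range with the mice at the ends exchanged, lowest in mouse 8 and highest in mouse 11. Calb2 spanned 2.57-fold and Pvalb 2.45-fold. Nos1 (1.88-fold), Npy (1.45-fold), Sst (1.41-fold) and Lhx6 (1.25-fold) were steadier. Variation left after additive terms for genotype and sex was taken as edgeR's biological coefficient of variation. Any difference of the genotype effect between the sexes stays in this measure. It was 41.2% for Vip and above that of 99.05% of all tested genes. For Cck it was 29.6% (above 97.4% of genes), for Pvalb 26.6% (96.4%) and for Lhx6 6.67% (above 21.6%).

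**Figure D1:**
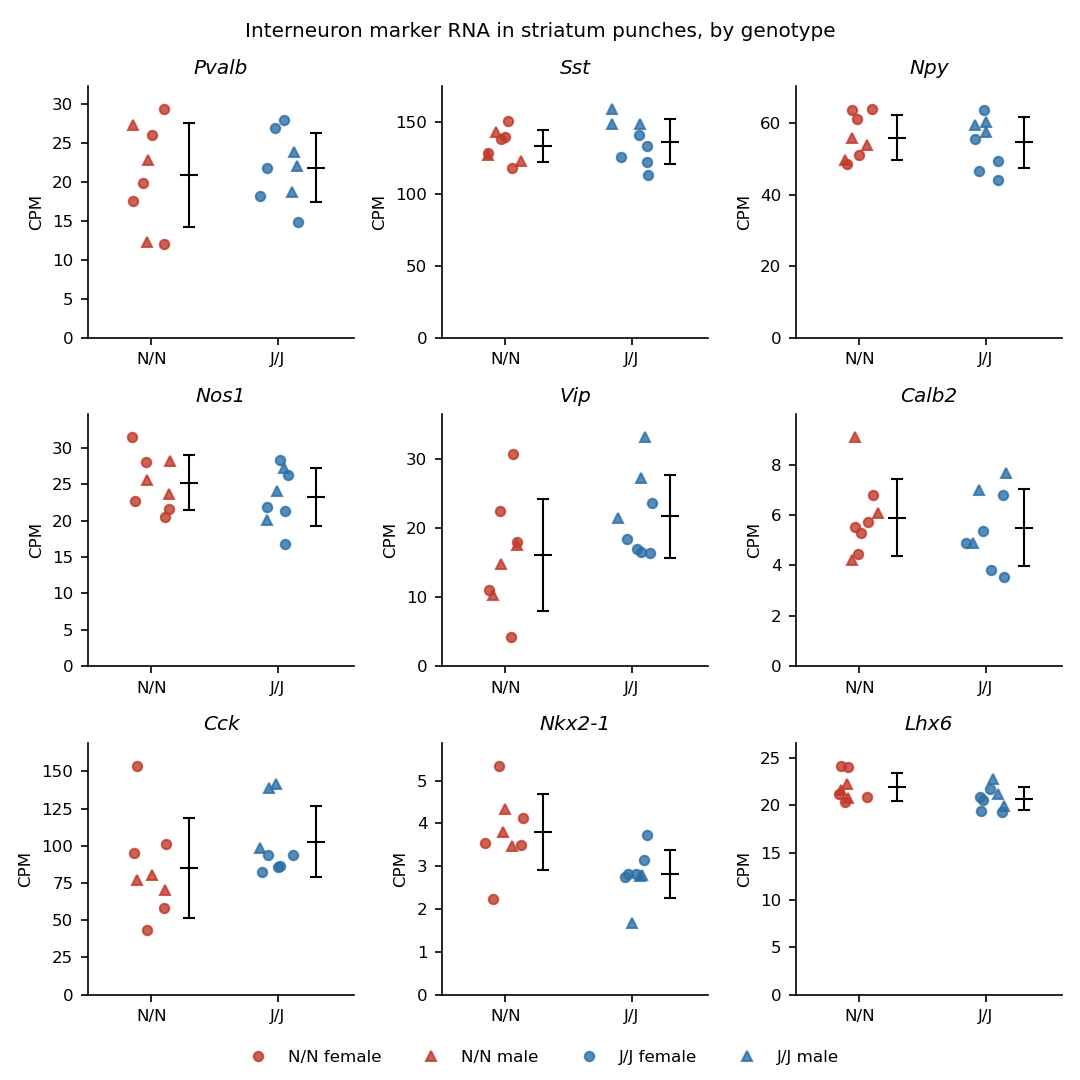
Level of each interneuron marker in CPM (linear axes from 0) in the 8 N/N and 8 J/J mice, circles for females and triangles for males, with the mean and SD as a black bar. The N/N and J/J values overlap for all 9 markers (the share over all genes was not counted), and Vip and Cck have the widest fold ranges, 7.90 and 3.55.

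None of the 9 markers differed between N/N and J/J mice at an adjusted p under 0.05. Over all 16113 genes the edgeR quasi-likelihood test with a sex term called 0% for genotype (0 genes, 1095 at an unadjusted p under 0.05), and DESeq2 and limma-voom also called 0. The N/N and J/J values overlapped for each of the 9 markers, as the plot of levels by genotype shows. The median log2 ratio between N/N and J/J mice was 0.037 over the 9 markers and 0.0017 over all genes tested.

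In the parvalbumin class, Pvalb, a calcium buffer of fast-spiking cells, had 11.98, 21.3 and 29.3 CPM as the lowest, median and highest N/N mouse, against 14.9, 21.9 and 27.96 CPM in J/J mice. The groups covered nearly the same range. Expressed as a fold of J/J, the N/N level was 0.960 with a 95% interval of 0.722 to 1.28. Differences inside that interval are compatible with these data, so an equal level was not shown. The interval is not a limit of detection, because calls were adjusted over all tested genes.

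The 3 markers of the somatostatin class were close in both genotypes. Sst, which encodes the inhibitory peptide of that name, had 117.9, 133.4 and 150.9 CPM as the lowest, median and highest N/N mouse, against 113.1, 137.2 and 159.3 CPM in J/J mice. The J/J range took in the whole N/N range, and the fold change was 0.982 (95% interval 0.894 to 1.08). Npy had 48.6, 54.9 and 64.1 CPM in N/N mice, against 44.3, 56.6 and 63.7 CPM in J/J mice. The groups overlapped, with a fold change of 1.03 (0.910 to 1.16). Nos1, whose enzyme makes the messenger nitric oxide, had 20.4, 24.6 and 31.4 CPM in N/N mice, against 16.8, 23.0 and 28.3 CPM in J/J mice. Its fold change was 1.08 (0.922 to 1.27), with 5 of 8 N/N mice above the J/J median.

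Vip and Cck were the markers with the lowest point estimates. Vip had 4.19, 16.2 and 30.6 CPM as the lowest, median and highest N/N mouse, against 16.4, 19.9 and 33.1 CPM in J/J mice. Of the 8 N/N mice, 6 had less than the J/J median, and the log2 fold change was -0.40 (SE 0.30, adjusted p = 0.754). Cck had 43.3, 78.6 and 153.8 CPM in N/N mice, against 82.2, 93.6 and 141.7 CPM in J/J mice. The highest value of all was in an N/N mouse, and the log2 fold change was -0.25 (SE 0.22, adjusted p = 0.781). Calb2, a calcium-binding protein gene, had 4.22, 5.62 and 9.09 CPM in N/N mice, against 3.54, 5.13 and 7.68 CPM in J/J mice, and its groups overlapped. Its log2 fold change was 0.12 (SE 0.16), and 0.023 without N/N male mouse 12, the mouse with the highest value.

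Nkx2-1 had the smallest p for genotype among the markers. Its lowest, median and highest values were 2.24, 3.67 and 5.35 CPM in N/N mice, against 1.68, 2.81 and 3.72 CPM in J/J mice. Of the N/N mice, 7 of 8 lay above the J/J median. The log2 fold change was 0.42 (SE 0.16, unadjusted p = 0.0140, adjusted p = 0.712), so it did not pass. Lhx6, the transcription factor that follows Nkx2-1 in the same lineage, had 20.3, 21.4 and 24.2 CPM in N/N mice, against 19.3, 20.7 and 22.7 CPM in J/J mice. Again 7 of 8 N/N mice were above the J/J median, and the log2 fold change was 0.080 (SE 0.048, adjusted p = 0.731).

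Vip and Cck rose with the cortical score and Nkx2-1 fell with it. In an edgeR fit with sex, genotype and the score, 2 of the 9 markers were higher with the score and 1 was lower at an adjusted p under 0.05, against 7.73% of all genes higher (1245) and 4.45% lower (717). Vip changed by 1.56 on the log2 scale per unit of the score (SE 0.13, adjusted p = 3.9e-07), and Cck by 1.06 (SE 0.085, adjusted p = 3.0e-07). Among all 16113 genes they ranked 17 and 13 by p. Nkx2-1 changed by -0.63 (SE 0.15, adjusted p = 0.00932). That call rests on N/N female mouse 4, without which the slope was -0.45 (adjusted p = 0.0861).

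The other 6 markers did not pass. Npy had a slope of 0.27 (SE 0.090, adjusted p = 0.0608) and Sst of 0.20 (SE 0.073, adjusted p = 0.0785). Npy passed in DESeq2 (adjusted p = 0.0368), without a sex term (0.0463), without J/J female mouse 1 (0.0262) and without J/J female mouse 6 (0.0284). The slopes of Calb2 (0.27, SE 0.21), Pvalb (0.068, SE 0.26), Nos1 (-0.13, SE 0.16) and Lhx6 (-0.039, SE 0.064) were within 2 standard errors of 0. The slope of Pvalb was the least certain, with a 95% interval of -0.50 to 0.63. The median slope was 0.20 over the 9 markers and -0.0058 over all genes.

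**Figure D2:**
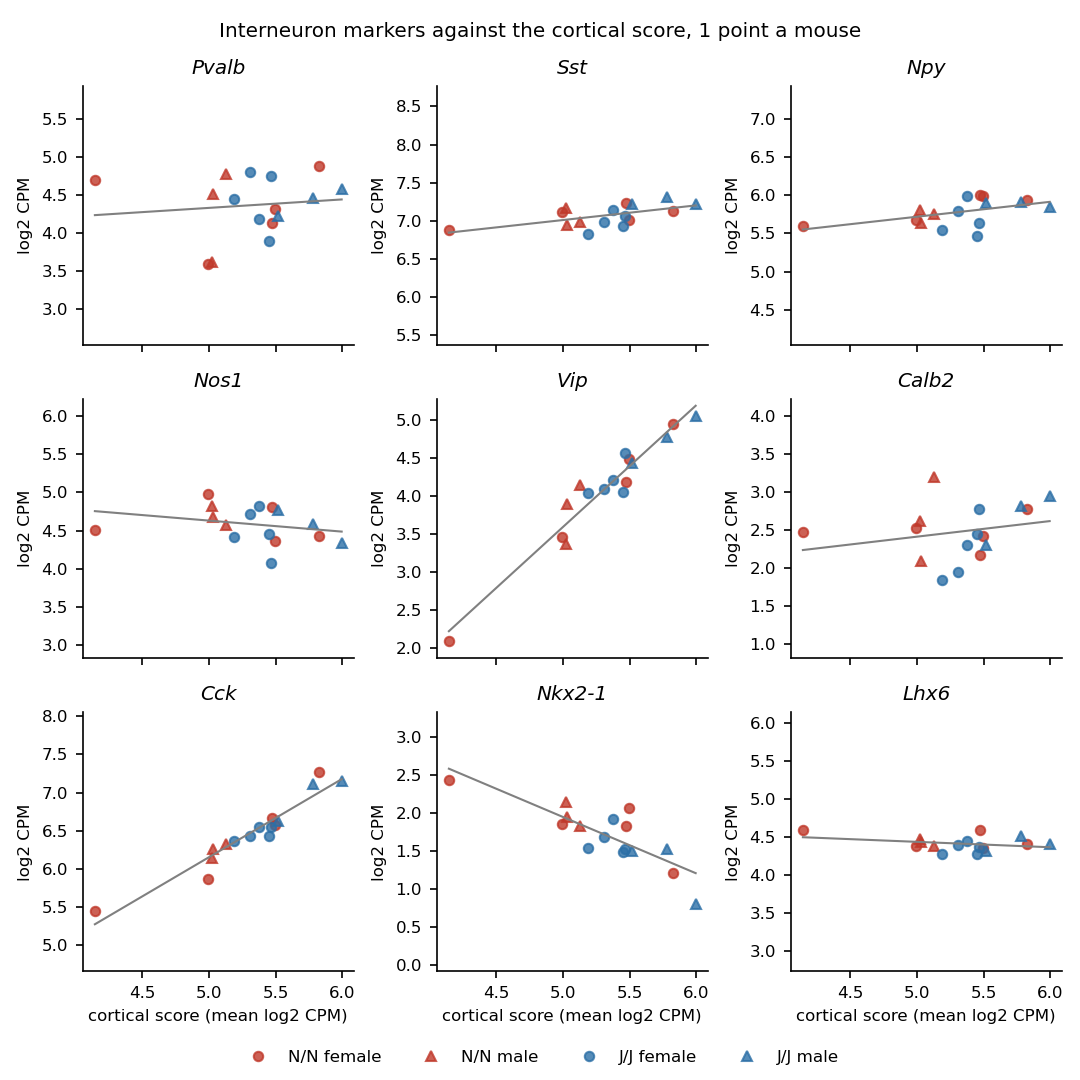
Log2 CPM of each marker (y axis, the same span of 3.4 log2 units in each panel) against the cortical score (x axis, mean log2 CPM of 10 cortical glutamatergic genes), 1 point a mouse, circles for females and triangles for males, with the least-squares line in grey. Vip and Cck climb steeply, Nkx2-1 descends, and Lhx6 is nearly flat.

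The same pattern held in the plain correlation over 16 mice. Pearson's r with the cortical score was 0.968 for Vip (Spearman's rho 0.938) and 0.957 for Cck (rho 0.974). For both the permutation p was 1e-05, the smallest that 100000 permutations can give, and 0.000689 adjusted over all genes. Nkx2-1 had an r of -0.820 (rho -0.732, permutation p = 0.00019, adjusted p = 0.00423). Leaving out the 2 mice farthest from the median score, N/N female 11 and J/J male 8, r was 0.909 for Vip and 0.943 for Cck, both still under 0.05 after adjustment. For Nkx2-1 it was then -0.649 with an adjusted p of 0.164 in the permutation test, so that its adjusted call rests on those mice. Sst had an r of 0.589 (rho 0.574, permutation p = 0.0137, adjusted p = 0.0777) and Npy of 0.492 (rho 0.565, adjusted p = 0.176), which did not pass. The 9 markers were tested as part of all 16113 genes.

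Within each genotype the direction was the same for the 3 called markers. Vip had an r of 0.971 within N/N and of 0.931 within J/J, Cck of 0.954 and 0.949, and Nkx2-1 of -0.810 and -0.757. In females (n = 10) r was 0.982 for Vip, 0.945 for Cck and -0.760 for Nkx2-1, and in males (n = 6) it was 0.938, 0.981 and -0.929. Spearman's rho had the same sign in each subgroup. Adjusted over all genes, the permutation p-values of these markers ran from 0.0456 (Cck within J/J) to 0.303 (Nkx2-1 within N/N) by genotype, and from 0.0470 (Vip and Cck in females) to 0.202 (Nkx2-1 in females) by sex. These subgroups were added after the data were seen. Calb2 had an r of 0.075 within N/N and of 0.872 within J/J (n = 8 each, exact permutation p = 0.853 and 0.00355, adjusted p = 0.959 and 0.0800), and the difference between them was not tested. The N/N mouse with the highest Calb2, male mouse 12 at 9.09 CPM, also had the highest score of 4 septal and pallidal genes (3.54, against 2.34 to 2.77 in the other 15 mice), whose part in the result was not tested.

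Markers often named together had unequal slopes. For that, 3 ratios of markers, chosen after their values were seen and so no independent evidence, were set against the cortical score with a permutation test of r adjusted over the 3. The log2 ratio of Vip to Calb2 had an r of 0.838 (rho 0.653, permutation p = 0.00022, adjusted p = 0.00051) and that of Lhx6 to Nkx2-1 an r of 0.804 (rho 0.774, permutation p = 0.00034, adjusted p = 0.00051). Without the 2 farthest mice r was 0.649 (p = 0.0127) and 0.723 (p = 0.0032). The log2 ratio of Vip to Cck had an r of 0.773 (rho 0.574, permutation p = 0.00289), and without the 2 farthest mice 0.341 (permutation p = 0.238), so that this relation rests on those mice.

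Set against the medium spiny neuron score instead, all 9 markers had an r of the opposite sign. Vip had an r of -0.798 (rho -0.856, permutation p = 0.00011, adjusted p = 0.00301) and Cck of -0.764 (rho -0.712, permutation p = 0.00045, adjusted p = 0.00756). Nkx2-1 had an r of 0.727 (rho 0.668, permutation p = 0.00131, adjusted p = 0.0154). Nos1 had an r of 0.613 (rho 0.547, permutation p = 0.0119, adjusted p = 0.0691) and Calb2 of -0.520 (rho -0.529, adjusted p = 0.155), and neither passed in the correlation. In the edgeR fit with that score as the term, Calb2 did pass, with a slope of -0.72 (adjusted p = 0.0460), and Nos1 did not (slope 0.48, adjusted p = 0.0563). The cortical and medium spiny neuron scores share libraries and mice, and their parts cannot be told apart here.

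Once the cortical score was a model term, the genotype estimates of Vip and Cck came to lie near 0. The log2 change by genotype was 0.021 for Vip (95% interval -0.18 to 0.22) and 0.067 for Cck (-0.080 to 0.22). That of Nkx2-1 was 0.17 (-0.088 to 0.43, adjusted p = 0.819). None of the 9 markers was called, against 0% of all genes in edgeR (1022 at an unadjusted p under 0.05), 0 genes in limma-voom and 2 in DESeq2, neither of them a marker. Npy had the smallest p of the markers in this fit, its log2 change being 0.13 (SE 0.074, unadjusted p = 0.0956). The standard error for Vip was 0.095 with the score and 0.30 without it, and for Cck 0.070 with the score and 0.22 without it.

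**Figure D3:**
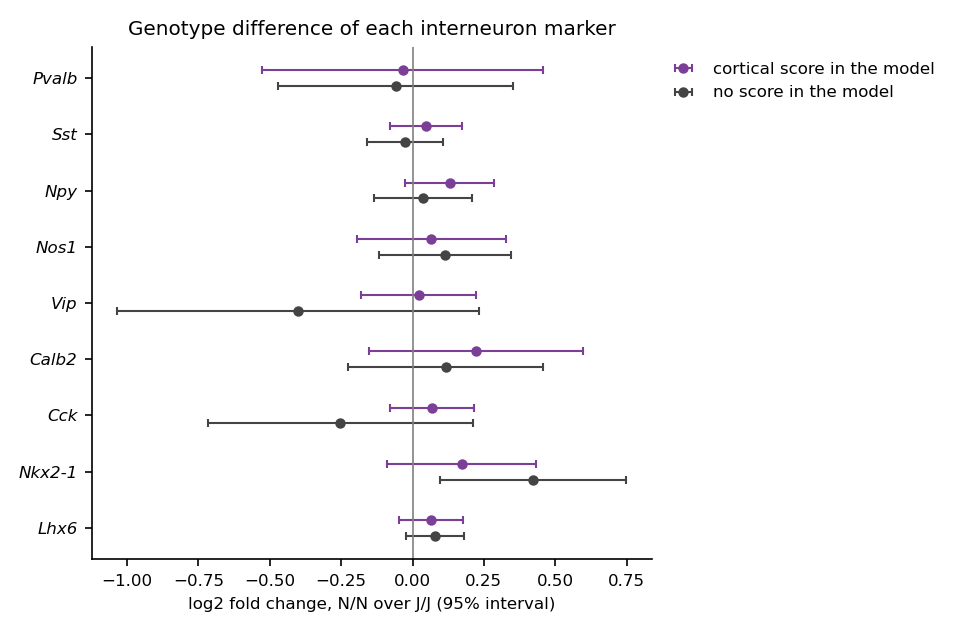
Log2 fold change (N/N over J/J) of each marker with its 95% interval from edgeR, with the cortical score in the model (purple) and without it (dark). For Vip and Cck the interval narrows and the estimate lies near 0 with the score, and with the score all 9 intervals include 0.

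Sex made no called difference to any marker, and some markers had no overlap between the few N/N and J/J males. Between females and males 0 of 9 markers were called by edgeR, against 0.0559% of all genes (9 genes), with log2 fold changes of female over male from -0.32 for Calb2 (SE 0.17) to 0.13 for Nkx2-1 (SE 0.16) and 0 markers at an unadjusted p under 0.05. In the 3 N/N males against the 3 J/J males, 5 of the 9 markers did not overlap, against 20.6% of all genes (3313). In females 0 of 9 did not overlap, against 0.496% of genes (80).

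Sst had 122.9, 126.8 and 143.1 CPM in N/N males, against 148.4, 148.6 and 159.3 CPM in J/J males. Vip had 10.3, 14.8 and 17.6 CPM in N/N males, against 21.4, 27.2 and 33.1 CPM in J/J males. All 3 J/J males had more of both peptide RNAs than any N/N male. The values of Cck were 70.2, 76.8 and 80.3 CPM in N/N males, against 98.9, 138.9 and 141.7 CPM in J/J males. Npy had 49.6, 53.9 and 55.9 CPM in N/N males, against 57.7, 59.6 and 60.3 CPM in J/J males. Nkx2-1 had 3.48, 3.79 and 4.35 CPM in N/N males, against 1.68, 2.77 and 2.81 CPM in J/J males. Every N/N male was below every J/J male for Sst, Npy, Vip and Cck and above every J/J male for Nkx2-1. The cortical score did not overlap between these males either, at 5.02 to 5.13 in N/N and 5.52 to 6.00 in J/J males. Its range in N/N females, 4.14 to 5.82, took in the whole range of J/J females, 5.19 to 5.47.

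Within males edgeR called 0% of genes for genotype (1815 genes at an unadjusted p under 0.05), limma-voom called 0 and DESeq2 called 4, none of them a marker. The log2 fold changes in males were -0.22 for Sst (SE 0.090, unadjusted p = 0.0282), -0.74 for Cck (SE 0.33, p = 0.0401), -0.94 for Vip (SE 0.47, p = 0.0651) and 0.69 for Nkx2-1 (SE 0.25, p = 0.0138), from the edgeR fit, with adjusted p-values of 0.40 to 0.47. With the cortical score added to that fit, a step taken after seeing the data, they were -0.11 for Sst (95% interval -0.31 to 0.094), 0.015 for Cck (-0.25 to 0.28), 0.26 for Vip (-0.081 to 0.61) and 0.27 for Nkx2-1 (-0.19 to 0.73). In females edgeR called 0% of genes (711 unadjusted), with limma-voom and DESeq2 at 0. The interaction of genotype and sex, which tests whether the sexes differ in the genotype effect, was called for 0 of 9 markers and for 0% of genes by edgeR (1118 at an unadjusted p under 0.05), 0 by limma-voom and 1 by DESeq2. Its smallest p among the markers was that of Sst, with a difference of 0.30 between the effects in females and males (SE 0.11, unadjusted p = 0.0165, adjusted p = 0.692).

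Genes known to go with each interneuron class were followed in the same fits. The lists were chosen with earlier results of these data known, and each is described by its counts and its median slope on the cortical score. Beside these counts stand the shares over all genes, 7.73% called higher with the score and 4.45% called lower. The median slope over all genes was -0.0058. For genotype 0 genes of any list were called, where edgeR called 0% of all genes.

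Of 6 genes of the fast-spiking class, 2 rose with the cortical score and 1 fell, with a median slope of -0.044. Kcnc2 and Kcnc1, potassium channel genes that let these cells fire fast, had slopes of 0.65 (SE 0.083, adjusted p = 4.0e-05) and 0.19 (SE 0.050, adjusted p = 0.0192). Syt2, a calcium sensor of fast transmitter release, had a slope of -0.52 (SE 0.14, adjusted p = 0.0270). Pthlh, the parathyroid hormone-like peptide gene of striatal fast-spiking cells, had the smallest genotype p of the list (log2 fold change 0.33, SE 0.12, adjusted p = 0.712).

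Of 7 genes of the somatostatin class, 2 rose with the score and 0 fell, with a median of 0.29. Crhbp, which encodes a binding protein for corticotropin-releasing hormone, had a slope of 0.93 (SE 0.090, adjusted p = 1.5e-06), and Grin3a, an NMDA receptor subunit gene, one of 0.51 (SE 0.12, adjusted p = 0.0113). Elfn1, a synaptic protein gene, had a slope of 0.29 that missed the threshold (adjusted p = 0.0507). Of the 7 slopes, 5 were above 0 and 2 below. The latter were those of Tacr1 (-0.40, SE 0.20, adjusted p = 0.227) and Chodl (-0.33, SE 0.21, adjusted p = 0.335), and neither passed. Cort, encoding the somatostatin-like peptide cortistatin, had the smallest genotype p (log2 fold change -0.36, SE 0.18, adjusted p = 0.712).

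Of 7 genes that go with Vip and Calb2, 1 rose and 0 fell, with a median of 0.47. Htr3a, the serotonin-gated channel gene of cortical Vip cells, had a slope of 0.57 (SE 0.15, adjusted p = 0.0203). Prox1 and Nr2f2, transcription factors of the caudal ganglionic eminence, had slopes of -0.36 (adjusted p = 0.0855) and 0.47 (adjusted p = 0.168). Prox1 also had the smallest genotype p of this list (log2 fold change 0.19, SE 0.12, adjusted p = 0.736).

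Of 11 lineage transcription factors, 3 rose and 3 fell with the score, with a median of 0.17. Lhx8, the factor of striatal cholinergic interneurons, had a slope of -0.60 (SE 0.12, adjusted p = 0.00308). Dlx6 and Dlx5, homeobox genes of the ganglionic eminences, had slopes of -0.54 (SE 0.11, adjusted p = 0.00283) and -0.50 (SE 0.13, adjusted p = 0.0174). Among those that rose were Satb1 (slope 0.34, SE 0.089, adjusted p = 0.0182) and Zeb2 (slope 0.23, SE 0.072, adjusted p = 0.0399). Satb1 had the smallest genotype p (log2 fold change -0.21, SE 0.092, adjusted p = 0.712). An antisense gene overlaps 4.38% of the exon bases of Dlx6 and another 3.27% of those of Zeb2.

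Of 4 genes shared by all GABAergic neurons, 1 fell and 0 rose, with a median of -0.39. Gad2, an enzyme gene of GABA synthesis, had a slope of -0.43 (SE 0.11, adjusted p = 0.0122). Gad1, the other enzyme gene, and Slc32a1, the vesicular GABA transporter gene, had slopes of -0.36 (adjusted p = 0.0516) and -0.42 (adjusted p = 0.0546) and did not pass, and an overlapping gene shares 24.92% of the exon bases of Slc32a1. For genotype Gad2 had a log2 change of 0.22 (SE 0.11, adjusted p = 0.712). Medium spiny neurons also make GABA, and of their 16 genes 15 fell with the score and 0 rose, with a median of -0.60. Of 5 cholinergic interneuron genes 1 fell, Lhx8, and 0 rose. Of 6 myelin genes 4 fell. Of the 10 cortical glutamatergic genes 9 rose, which is no independent result because these genes make up the score.

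Of 15 receptor and nitric oxide target genes, 14 were tested, and 5 rose and 1 fell with the score, with a median of 0.098. The somatostatin receptor genes Sstr3, Sstr2 and Sstr1 had slopes of 0.94 (SE 0.078, adjusted p = 3.1e-07), 0.87 (SE 0.16, adjusted p = 0.00222) and 0.75 (SE 0.083, adjusted p = 6.9e-06). Sstr4, also a somatostatin receptor gene, had a slope of 0.16 (SE 0.11, adjusted p = 0.391) and did not pass. Cckbr, the cholecystokinin receptor gene of brain, had a slope of 0.93 (SE 0.081, adjusted p = 5.0e-07), close to that of Cck itself, and Npy1r, a receptor gene for neuropeptide Y, one of 0.25 (SE 0.060, adjusted p = 0.0104). The neuropeptide Y receptor genes Npy2r and Npy5r did not pass, with slopes of -0.52 (adjusted p = 0.258) and 0.0093 (adjusted p = 0.969). Gucy1a3, a subunit gene of the guanylyl cyclase that nitric oxide activates, had a slope of -0.27 (SE 0.065, adjusted p = 0.0112). Npy1r also had the smallest genotype p of this list (log2 fold change -0.20, SE 0.060, adjusted p = 0.712). The Vip receptor genes Vipr1 and Vipr2, named after their values were seen, had slopes of 0.13 (adjusted p = 0.249) and -0.057 (adjusted p = 0.916).

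**Figure D4:**
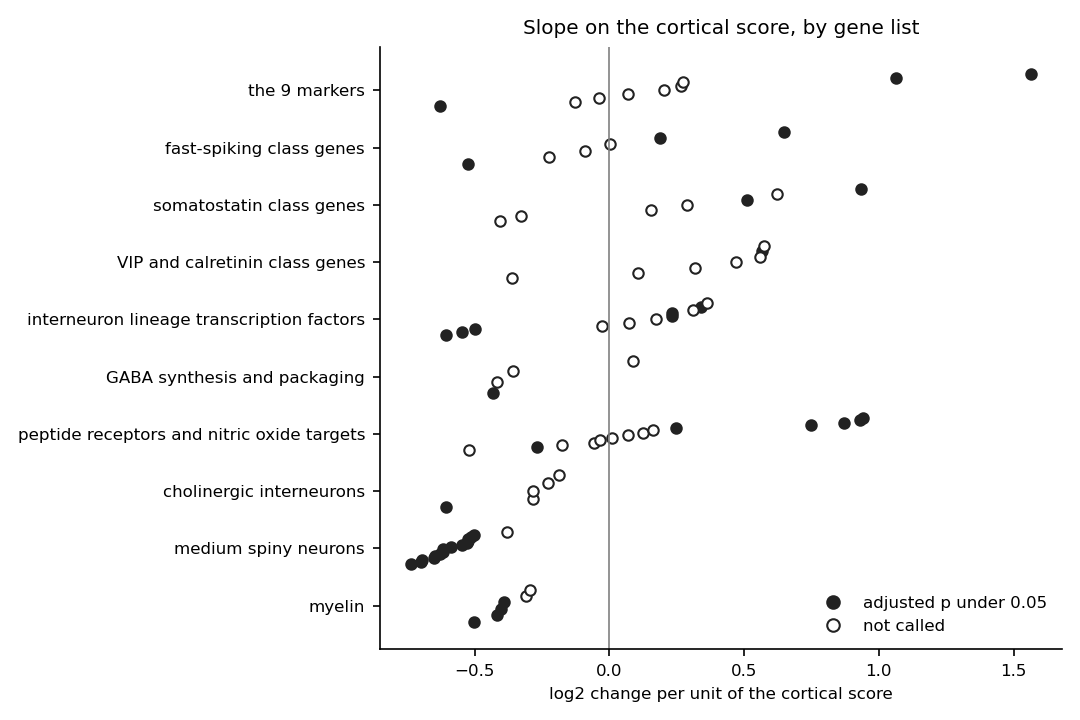
Slope on the cortical score (x axis, log2 change per unit) of each tested gene, by list (rows), filled where the adjusted p was under 0.05. Vip at 1.56 and Cck at 1.06 lie right of all genes of the other lists drawn, which leave out the cortical genes that form the score, Nkx2-1 at -0.63 lies among the medium spiny neuron genes, and the remaining 6 markers lie between -0.13 and 0.27.

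Among the 36 pairs of markers, Vip and Cck rose and fell together. Their r over 16 mice was 0.941 (rho 0.927, permutation p = 1e-05, the smallest the permutations can give, adjusted p = 0.000885 over all genes against Vip). Cck was the gene with rank 20 of all genes by r with Vip. Without the 2 mice farthest from the median of Vip, r was 0.914. After the cortical score was removed from both by linear regression, r was 0.203 (permutation p = 0.452). Nkx2-1 ran against Vip (r = -0.793, rho -0.671, permutation p = 0.00033, adjusted p = 0.0167) and against Cck (r = -0.787, rho -0.665, permutation p = 0.00053, adjusted p = 0.0198). With the score removed these were 0.00041 and -0.010, and without the 2 mice farthest from the median of Nkx2-1 they were -0.640 and -0.618 with adjusted p-values of 0.599 and 0.610 in the permutation test. With the mice farthest by Vip or by Cck left out instead, r was -0.640 and -0.645 (adjusted p = 0.129 and 0.151, permutation test).

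Sst and Npy, which the same striatal cells carry, had an r of 0.718 (rho 0.753, permutation p = 0.00214), which missed the threshold over all genes (adjusted p = 0.0738). With the cortical score removed it was 0.608. Nos1, the remaining marker of that class, had an r of 0.286 with Sst (permutation p = 0.282) and 0.260 with Npy (permutation p = 0.333). With the score removed these were 0.568 and 0.465, adjusted p = 0.274 and 0.419 in the permutation test. Pvalb ran against Nos1 with an r of -0.583 (rho -0.544, permutation p = 0.0178, adjusted p = 0.235). Lhx6, made by both the Pvalb and the Sst lineages, had an r of 0.044 with Pvalb and 0.343 with Sst, and with the score removed 0.087 and 0.693 (permutation p = 0.748 and 0.00282, adjusted p = 0.890 and 0.183). None of the pairs passed the adjusted threshold with the score removed.

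**Figure D5:**
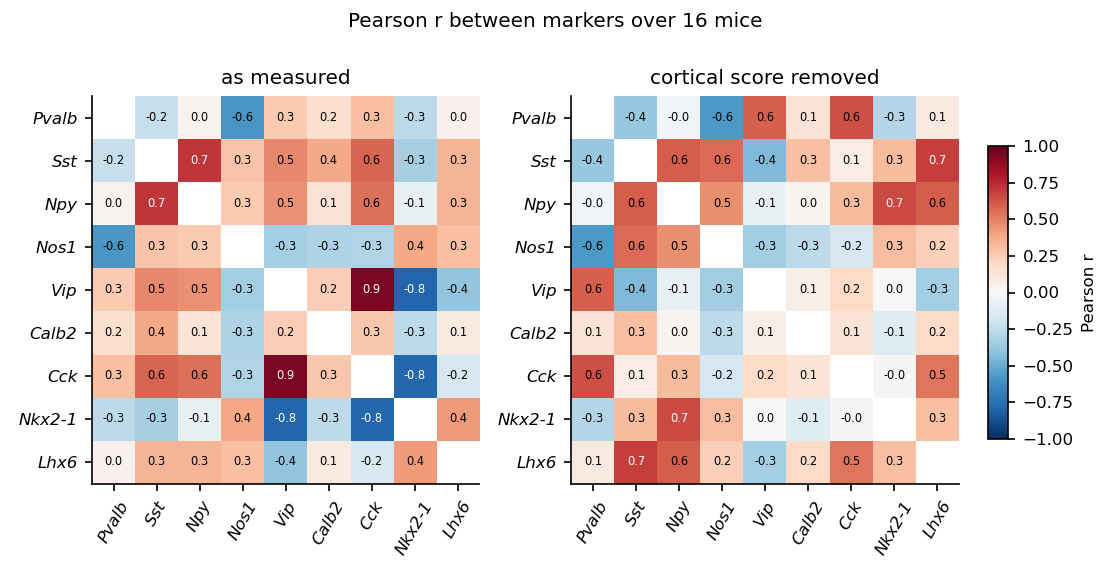
Pearson r between each pair of the 9 markers over 16 mice, as measured (left) and after the cortical score was removed from both by linear regression (right), on a colour scale from -1 (blue) to 1 (red). The strong block of Vip, Cck and Nkx2-1 on the left is near 0.2 or 0 on the right. Sst and Npy are at 0.718 on the left and 0.608 on the right, and Sst with Lhx6 (0.693), Npy with Nkx2-1 (0.658) and Pvalb with Cck (0.644) are larger on the right than on the left.

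The genes with the most similar pattern over the 16 mice are given for each marker as a description, by Pearson r of log2 CPM over all tested genes. For Vip they were Neurod2 (0.977), a transcription factor of cortical glutamatergic neurons that is part of the cortical score, Car10 (0.969) and Nrn1 (0.969). For Cck they were Ncald (0.974), Sept6 (0.967) and Car10 (0.962). All 5 of these genes had an r of 0.969 to 0.982 with the cortical score itself. For Nkx2-1 the nearest gene was Lhx8 (0.919), followed by Agap1 (0.892) and Baz1a (0.884).

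Pvalb varied most like Ankrd29 (0.893), Vamp1 (0.891), a vesicle fusion gene, and Pcnp (0.850). Sst and Npy had the same nearest gene, Uchl1, a neuronal ubiquitin hydrolase (0.890 and 0.872). Sst was followed by Irgq (0.888) and Mapre3 (0.884), and Npy by BC037034 (0.841) and Gpatch1 (0.836). Nos1 was nearest to Lsm14b (0.931), Numa1 (0.928) and Jakmip1 (0.925), and Calb2 to Cidea (0.889), Tcerg1l (0.887) and Psme1 (0.880). Lhx6 had the lowest values, with Xbp1 (0.820), a factor of the unfolded protein response, Snx20 (0.782) and Dnajb11 (0.774), an endoplasmic reticulum chaperone gene.

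With the cortical score removed, the nearest genes were others for most markers. Pvalb was then nearest to Mrpl48 (0.932), Vamp1 (0.913) and Cd34 (0.895), and Calb2 to Cidea (0.885), Mapre1 (0.883) and Tcerg1l (0.881), so that Vamp1, Cidea and Tcerg1l stood in both lists. Vip was nearest to Echdc1 (0.818), Fcf1 (0.813) and Gpbp1l1 (0.801), and Cck to Dtx4 (0.874), Polr2h (0.867) and Cdk2ap1 (0.849). Nkx2-1 was nearest to Fbxl22 (0.855), Kirrel2 (0.830) and Nfatc1 (0.819). Sst was nearest to Ptov1 (0.861), Nup50 (0.851) and Lrfn3 (0.850), Npy to Capn2 (0.918), Angptl1 (0.838) and Hcls1 (0.835), Nos1 to Acly (0.943), Pik3r4 (0.937) and Golga2 (0.935), and Lhx6 to Ak4 (0.835), Plk3 (0.815) and Mrps6 (0.802).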

How the data were processed

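Raw read counts per gene, deposited as 4 tables, 1 per sequencing lane, for each of 16 mice, were used as the authors made them. Per the submitters' processing notes the authors used FastQC 0.11.3, TopHat2 2.1.0 with mm10, HTSeq 0.6.1p1, edgeR 3.8.6 and limma 3.22.7. Which annotation was counted, and with which strand setting, is not given in the sources used here. Reads of overlapping antisense partners cannot be told apart. The series text gives 4 females and 4 males per genotype, and the sample labels, used here, give 5 and 3. Mice 11 (N/N) and 10 (J/J) share a cage label.

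Lanes were added up per mouse, leaving out 5 summary rows (19.95% of reads in no gene, 21.84% not unique, 0.78% ambiguous). Depth was 27405386 to 51334152 gene reads per mouse.

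Tests used edgeR 4.0.16 in R 4.3.3 with TMM factors (0.970 to 1.02), filterByExpr (minimum count 10, total 15). The test was the robust quasi-likelihood F test, with Benjamini-Hochberg adjustment over 16113 genes at 0.05. Standard errors are the absolute log2 change over the square root of F. Log2 CPM used a prior count of 2. Correlations used 100000 permutations of mice, or exact enumeration below 10 mice, adjusted over all genes. The edgeR p-values set an estimate against the variation between mice that the model leaves. Those of the correlations come from permuting mice. The code was tested on simulated data. Exon lengths and positions came from GENCODE and promoters from RefSeq, both on GRCm38.

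Alternatives were other scaling, DESeq2 1.42.0, limma-voom 3.58.1, other filters, no sex term, other scores, a smaller prior count and leaving out each mouse. The text names the markers, the 3 nearest genes of each and, of each list, up to 3 genes with the smallest p for the score and 1 for genotype. In the lineage and receptor lists, further called genes, the Vip receptor genes, Sstr4, Npy2r and Npy5r were named after their values were seen. The same holds for Tacr1 and Chodl in the somatostatin class list. Some items are not reported here. Members and lists were chosen with earlier results of these data known. Of the lists not described above, thalamus held 0 called genes for the score, choroid plexus 1 (Clic6, lower) and septal and pallidal neighbours 1 (Npas1, higher).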

Additional observations from a re-analysis of the deposited data

Results flagged for a closer look

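Among 44 groups of 8 mice examined for a value that stands apart from its group, 3 held one, and chance marks about 1 in 20 such groups. N/N male mouse 12 had a mean log2 CPM of 3.54 over the septal and pallidal genes, and the next N/N mouse had 2.77. The same mouse had 4.23 over the lineage transcription factors, against 3.98 in the next N/N mouse, and it also had the highest Calb2 of all mice at 9.09 CPM. N/N female mouse 11 had 4.198 over the peptide receptor and nitric oxide target genes, and the next lowest N/N mouse had 4.48. That mouse also had the lowest cortical score, the lowest Vip and Cck and the highest Nkx2-1. None of the 9 markers themselves held a value that stood apart from its genotype by this measure.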

How the results depend on the processing

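Of 1568 alternative values computed, 1451 kept their direction and side of the threshold or their size, 15 were weaker, 4 stronger, 16 moved and 82 reversed, most of the last with values near 0. Causes were not tested. With each mouse left out in turn, 2 to 3 markers were higher and 0 to 1 lower with the cortical score, and 823 to 1319 genes were higher and 354 to 763 lower. The sex effect was called for 8 to 10 genes and the interaction for 0 to 66 (66 without N/N female 11, 1 without N/N male 5). Vip had slopes of 1.45 to 1.61, Cck 0.91 to 1.24 and Nkx2-1 -0.76 to -0.45. DESeq2 called 2 genes for genotype with the score and 1 for the interaction, which also had 1 without a low-count filter. Asking for 1 CPM in 8 mice left 5 genes for sex, against 9.

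With the medium spiny neuron score in place of the cortical one, 1 marker was higher (Nkx2-1) and 3 lower (Vip, Cck and Calb2). Of the 16113 genes tested, 1085 were lower. The number of genes higher is not reported for that score, so the 1 higher marker cannot be read against all genes. The slopes were -1.57 for Vip, -1.09 for Cck, 0.76 for Nkx2-1, -0.32 for Pvalb, -0.15 for Sst, -0.19 for Npy, 0.48 for Nos1, -0.72 for Calb2 and 0.072 for Lhx6. That score had an r of -0.811 with the cortical one, and the myelin score one of -0.721. With the myelin score, 0 markers were higher and 0 lower (293 genes higher, 375 lower), with slopes of -1.41 for Vip, -1.03 for Cck, 0.50 for Nkx2-1, -0.35 for Sst, -0.42 for Npy, 0.16 for Nos1, -0.29 for Calb2 and 0.023 for Lhx6. The genotype effect of Vip was then -0.19 with the medium spiny neuron score, -0.18 with myelin and -0.12 with Slc17a7 alone, and that of Cck -0.092, -0.094 and -0.047. With Slc17a7 alone the slope of Pvalb was -0.087, and its interaction was 0.037 in limma-voom.

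Leaving out 1 mouse, these changed sign: the genotype effect of Pvalb (-0.16 to 0.029), Sst (-0.062 to 0.0035) and Npy (-0.0054 to 0.078); with the score that of Pvalb (-0.29 to 0.045), Vip (-0.024 to 0.060) and Cck (-0.044 to 0.10); the slope of Pvalb (-0.25 to 0.47) and Lhx6 (-0.070 to 0.076); the sex effect of Pvalb (-0.095 to 0.13) and Lhx6 (-0.029 to 0.017); and the interaction of Pvalb (-0.28 to 0.23), Nos1 (-0.12 to 0.098) and Calb2 (-0.011 to 0.55). With the score removed, r changed sign for Pvalb and Npy (-0.030), Sst and Nkx2-1 (0.318), Sst and Vip (-0.443), Npy and Nkx2-1 (0.658), Npy and Vip (-0.077), Nkx2-1 and Vip (0.00041), and Cck and Lhx6 (0.534). Which 2 mice are farthest depends on the marker whose median is taken. Without the 2 farthest by Pvalb, r changed sign for Pvalb with Npy (-0.054), Vip (-0.027) and Cck (-0.0067). By the partner it was -0.141 with Npy, 0.689 with Vip and 0.459 with Cck. By Npy it changed sign for Npy with Calb2 (-0.091) and Lhx6 (-0.011), but by Calb2 it was 0.00086 and by Lhx6 0.516. Calb2 with Lhx6 was -0.021 by Calb2 and 0.337 by Lhx6, and Cck with Lhx6 was 0.243 by Cck and 0.221 by Lhx6. Nkx2-1 with Npy changed sign by Nkx2-1 (0.192) and not by Npy (-0.261), and Lhx6 with Vip by Lhx6 (0.033) and not by Vip (-0.012). Lhx6 with the score changed sign without its 2 farthest mice (0.102) and in J/J mice alone (0.514).

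No paired analysis was possible because the labels number mice, the groups share no number, and the cage label ties 1 N/N mouse to 1 J/J mouse and no others.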

Other observations

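Within each sex, and with the cortical score as a model term, an alternative added after seeing the data, the marker with the smallest p for genotype in females was Npy. Its log2 fold change was 0.18 (95% interval 0.0049 to 0.36, unadjusted p = 0.0446, adjusted p = 0.701 in edgeR), in a fit that called 0 genes (1142 at an unadjusted p under 0.05). In males the estimate for Npy was 0.0033 (95% interval -0.26 to 0.27), and that fit called 0 genes (375 unadjusted). Calb2, a calcium buffer of calretinin cells, had the largest estimate in females, 0.25 (95% interval -0.20 to 0.70), and 0.16 (-0.50 to 0.82) in males.

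Npy had an r with the cortical score of 0.823 in the 8 N/N mice (exact permutation p = 0.00469, adjusted p = 0.153) and 0.400 in the 8 J/J mice (exact permutation p = 0.327), and the difference was not tested. Pvalb, with an r of 0.118 with the cortical score, had r values of 0.594 with Vip and 0.644 with Cck once the score was removed (permutation p = 0.0162 and 0.00655, adjusted p = 0.147 and 0.104).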
